A study of Mus musculus with 36 samples.

Results

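Transcripts that code for surface proteins used to stage the maturation of natural killer (NK) cells were followed through mouse NK cells sorted by inhibitory receptor, cultured with ionomycin or receptor antibodies, or recovered from tumours. The genes were Cd27, Kit, Il7r, Spn, Cd69, Ly6a, Ly6c1, Ly6c2 and Thy1, chosen by symbol. All 9 members were found in each of 4 deposited expression tables, among 32940 rows in the table of sorted subsets and 56923 in each of the others. Values are TPM (transcript abundance scaled for transcript length and for the library total). The series holds 36 libraries in 12 groups of 3, which the titles call biological replicates. In the table of sorted subsets, mature CD27-CD11b+ NK cells from spleen were sorted by the inhibitory receptors Ly49C, Ly49I and NKG2A. TP cells were positive for all of them (Ly49C+Ly49I+NKG2A+), SP cells for Ly49I alone (Ly49C-Ly49I+NKG2A-) and TN cells for none (Ly49C-Ly49I-NKG2A-). Each subset came from WT mice (B2m+/+, C57BL/6) and from B2m-/- mice, written KO here. The ionomycin table holds NK cells purified by flow cytometry from WT splenocytes after 22 h in vehicle or in ionomycin, a calcium ionophore. For the antibody table, splenocytes of WT mice stayed in medium for 48 h or were plated on a pair of coated antibodies, against NKp46 with NKG2D or NKp46 with DNAM-1, before the NK cells were isolated. The tumour table holds CD27-CD11b+ NK cells taken from WT mice at day 10 after subcutaneous injection of B2m-deficient MC38 colon carcinoma cells. Each table carries 1 batch date, so groups were compared only within a table.

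NK cells in the mouse spleen mature from a CD27-positive stage to a CD27-negative, CD11b-positive stage, and lose homeostatic cytokine receptors while they gain CD43 and Ly-6C on the surface. CD27 is a costimulatory receptor of the TNF receptor family, KIT is the stem cell factor receptor and IL7R is the alpha chain of the interleukin-7 receptor. CD43 (Spn) is a large sialylated mucin, CD69 is an early activation antigen that pulls the S1P receptor S1PR1 off the surface, and Ly6a (Sca-1), Ly6c1, Ly6c2 and Thy1 (CD90) code for small proteins held by a lipid anchor. Inhibitory Ly49 and NKG2A receptors read MHC class I, which needs B2m to reach the surface. Cells without such input are poorly responsive.

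Ly6c1 and Ly6c2 are shown by sequence because their upstream regions are alike while their levels were far apart. In each of the 18 libraries of sorted cells Ly6c2 was at 326 TPM or higher and Ly6c1 at 10.3 TPM or lower. Both genes lie on the minus strand of chromosome 15, and the 250 bases before the first listed start of each are printed 5′ to 3′, from RefSeq on GRCm38.p6, at chr15:75048838-75049087 for Ly6c1 and chr15:75111972-75112221 for Ly6c2. Capitals mark matches, on either strand, to TATAAA (the box bound by TBP), GGAAAA (the core bound by NFAT, the factor that calcium activates) and TGTGGT (the core bound by RUNX), which do not overlap each other here.
Ly6c1: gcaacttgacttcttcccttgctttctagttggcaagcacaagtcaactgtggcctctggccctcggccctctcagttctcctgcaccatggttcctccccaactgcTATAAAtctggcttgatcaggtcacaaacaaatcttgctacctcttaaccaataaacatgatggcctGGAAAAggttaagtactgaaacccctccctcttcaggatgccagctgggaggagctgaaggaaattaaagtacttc
Ly6c2: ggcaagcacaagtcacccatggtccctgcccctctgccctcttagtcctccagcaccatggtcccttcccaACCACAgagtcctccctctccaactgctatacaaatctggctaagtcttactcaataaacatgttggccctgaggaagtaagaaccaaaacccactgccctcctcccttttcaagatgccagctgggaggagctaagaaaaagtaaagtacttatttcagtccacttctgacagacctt
The windows were identical at 164 of 216 aligned bases (75.9%). Ly6c1 held TATAAA, beginning 143 bases before the start, and GGAAAA, beginning 76 bases before it. Ly6c2 held neither, and held TGTGGT on the opposite strand, 179 bases before the start. Whether the named factors bind at these matches was not tested. Of 27025 promoter windows of this length, 13% held TATAAA, 20.6% held GGAAAA and 14.2% held TGTGGT. RefSeq lists a pair of starts for each of these genes, and windows for Cd27, Kit, Il7r and Spn were matched too, of which Cd27 and Il7r held GGAAAA. In the GENCODE vM21 transcripts, 379 windows of 50 bases occur in both Ly6c1 and Ly6c2, which is 21.5% of the Ly6c1 windows and 13.9% of those of Ly6c2. Ly6a and Ly6c1 share 195 windows, 15% of the Ly6a windows. Reads from these stretches fit more than 1 gene, so the split between the 3 Ly6 levels is uncertain where one is low. Kit, Spn and Thy1 share no such window with another gene.

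Marker transcripts mostly followed the labels of the sorted cells. NK markers (7 of 7 matched, among them Ncr1 and Eomes) summed to 15158 to 18502 TPM in the 18 libraries of sorted subsets. Klrc1, which codes for NKG2A, averaged 864 ± 9.73 TPM (SD, n = 3) in WT TP cells and 22.5 ± 8.39 in WT TN cells, and group means of B2m lay between 2977 and 3312 TPM in WT and between 94.2 and 113 TPM in KO cells. Klra9, another gene of the sort, averaged 928 ± 109 TPM in WT SP and 82.4 ± 5.31 TPM in WT TN cells. In KO mice it averaged 1296 ± 175 TPM in SP and 158 ± 25.5 TPM in TN cells. Klra9 was thus lower in TN cells but not absent, with a higher mean in KO TN than in WT TN cells. The 3 KO TP libraries stood apart: their neutrophil markers summed to 61 to 218 TPM against at most 5.85 in the other 15, and their B and plasma cell markers to 404 to 683 TPM against 167 to 337. T cell markers stayed at or under 17.6 TPM in all 18, and mast cell or progenitor markers, the other blood cells rich in Kit, at or under 9.22 TPM. Between 12290 and 14501 genes had a value above 0 in a library of sorted cells, and the read depth is unknown because the files give no counts.

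Ranked by mean level in sorted cells, Spn (1151 TPM) and Ly6c2 (895 TPM) were higher than 99.3% and 98.9% of the tested genes, and Cd27 (151 TPM) and Thy1 (101 TPM) followed. Kit and Cd69 averaged 21.2 and 16.7 TPM, and Il7r 2.76 TPM. Ly6c1 averaged 1.62 TPM and Ly6a 0.487 TPM. The sort had gated on absence of CD27 protein, yet its transcript was at 84.5 TPM or more in every library. Ly6a was listed at 0 in most libraries and reached 4.62 TPM in WT TN replicate 1, the same library that held the highest Ly6c1 value, 10.3 TPM. Ly6a did not reach the mean of 1 TPM set for testing, so 8 of the 9 genes were tested here.

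**Figure D1:**
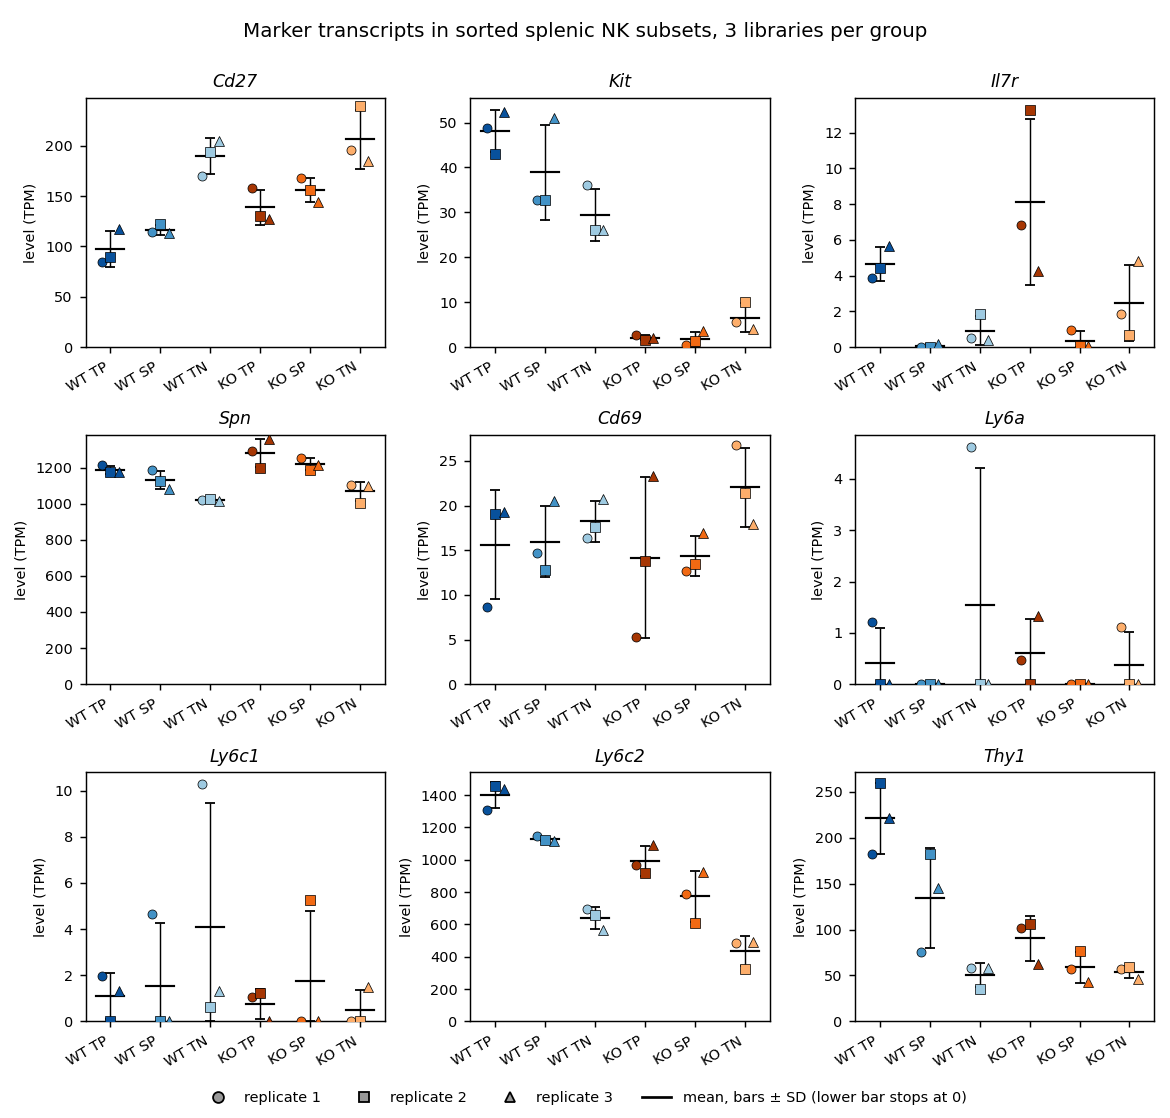
Levels in TPM (vertical axes, starting at 0) of the 9 genes in the 6 groups of sorted NK cells, with 1 point per library, a bar at the mean and whiskers of 1 SD. Kit lies between 26.1 and 52.5 TPM in the WT libraries and at or under 10.1 TPM in the KO libraries, and Ly6c2 falls from TP to TN in both genotypes.

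In WT mice, TN cells held more Cd27 and less Ly6c2 and Thy1 transcript than TP cells. Changes were tested with limma on log2(TPM + 1), with p-values adjusted over all genes by the Benjamini-Hochberg method and called under 0.05. Here and below, statements that groups did not overlap describe the library values only. The share of all genes without overlap was not counted, and groups of 3 can separate without a true difference. Of the 8 members tested 3 were called, where 1.31% of all genes tested were. Cd27 was at 84.5, 89.8 and 118 TPM in the TP libraries and at 170, 194 and 205 TPM in the TN libraries. All 3 TN values were above all 3 TP values, and the log2 change was 0.97 ± 0.13 (SE; limma, adjusted p = 0.000527). Ly6c2, the gene for the Ly-6C antigen of mature NK cells, was at 1306, 1459 and 1435 TPM in TP and at 698, 657 and 567 TPM in TN libraries, a log2 change of -1.13 ± 0.15 (limma, adjusted p = 0.000299). The groups did not overlap. Thy1 stood at 182, 260 and 221 TPM in TP and at 58.6, 35.0 and 57.6 TPM in TN libraries, so every TN library was lower, with a log2 change of -2.13 ± 0.30 (limma, adjusted p = 0.000626). Spn was at 1173 to 1211 TPM in TP and 1016 to 1028 TPM in TN libraries, again without overlap. Its log2 change of -0.22 ± 0.06 missed the threshold at an adjusted p of 0.0925 and passed it at 0.0481 when the mouse number was a block in limma (range over its alternatives 0.0481 to 0.317). Fitted on only the WT TN and TP libraries, Cd27 (limma, adjusted p = 0.131) and Thy1 (0.0628) were no longer called, and Ly6c2 was called under all 13 alternatives. The sum of B and plasma cell markers was higher in the WT TN than in the WT TP libraries (281 to 337 against 167 to 181 TPM). It rested mostly on Ighm, with means of 281 and 139 TPM. Of 5 such markers tested Ighm alone was called, and their median log2 change was -0.48. Monocyte or macrophage markers, of cells that can express Ly6c2, were lower in WT TN than in WT TP libraries (0.31 to 6.87 against 11.6 to 14.6 TPM). Markers of innate lymphoid cells (ILC), which can carry Thy1, were lower as well (47.3 to 56 against 68.1 to 90.6 TPM), and of these Itga1 was called (log2 change -1.63, limma, adjusted p = 0.0326). The part of other cells in the Cd27, Ly6c2 and Thy1 levels was not tested.

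The WT SP cells differed from their neighbours less. Against TP cells none of the 8 members passed, where 0.191% of all genes did. An unadjusted p under 0.05 (limma) was held by 2 of the 8 and by 927 of all 12018 genes tested. Il7r was listed at 0, 0 and 0.17 TPM in SP libraries against 3.84, 4.45 and 5.67 TPM in TP libraries. The groups did not overlap, and the log2 change of -2.41 ± 0.51 had an adjusted p of 0.0813 (limma), which ran from 0.0259 to 0.277 over the alternatives and passed with a pseudocount of 0.1, with only the groups compared and without a variance trend. ILC markers, of cells rich in Il7r, summed to 54.9 to 59.7 TPM in SP and 68.1 to 90.6 TPM in TP libraries, with Tmem176b at 0.22, 0 and 0 against 6.06, 6.41 and 4.97 TPM. Monocyte or macrophage markers were at 0 to 1.53 TPM in SP and 11.6 to 14.6 TPM in TP libraries. The part of these cells in the Il7r level was not tested. Thy1 was at 75.4, 182 and 145 TPM in SP libraries, with replicate 1 lowest, and its log2 change from TP of -0.79 ± 0.30 did not pass (limma, adjusted p = 0.523). TN cells against SP cells gave 2 calls, where 0.383% of all genes passed. Cd27 was at 114, 122 and 113 TPM in SP libraries, below every TN value, with a log2 change of 0.69 ± 0.13 (limma, adjusted p = 0.0312). Ly6c2 was at 1146, 1122 and 1118 TPM in SP libraries, above every TN value, with a log2 change of -0.82 ± 0.15 (limma, adjusted p = 0.0192). Both calls were lost without any 1 of the SP libraries, without TN replicate 3, without the filter on low values, with only the groups compared and without a variance trend, and that of Cd27 also without TN replicate 2 (limma, adjusted p up to 0.245 for Cd27 and 0.207 for Ly6c2). Thy1 was lower in TN than in SP cells, with a log2 change of -1.34 ± 0.30 that did not pass (limma, adjusted p = 0.0763), and passed at 0.0188 without SP replicate 1 (range 0.0188 to 0.586).

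In KO mice the order of Ly6c2 was the same as in WT mice, with TP highest and TN lowest. The TP libraries gave 969, 917 and 1092 TPM, the SP libraries 786, 610 and 924 TPM and the TN libraries 483, 326 and 492 TPM. TN libraries lay below all others, while TP and SP libraries overlapped. Ly6c2 was the 1 member of 8 called between KO TN and KO TP cells, where 0.524% of all genes passed, with a log2 change of -1.21 ± 0.15 (limma, adjusted p = 0.000182). Fitted on only those groups it was not called (adjusted p = 0.131; range 1.55e-05 to 0.131). KO TP libraries also held monocyte or macrophage markers at 23 to 55.9 TPM against 0.36 to 5.86 TPM in KO TN libraries, beside the neutrophil markers given above. Both cell types can express Ly6c2, and their part in the difference was not tested. Spn gave 1290, 1196 and 1355 TPM in the TP libraries of these mice and 1103, 1006 and 1096 TPM in their TN libraries, with no overlap. Its log2 change of -0.26 ± 0.06 did not pass (limma, adjusted p = 0.0606), and passed with the mouse number as a block (0.0248), after quantile normalization and without KO TP replicate 2 (range 0.00954 to 0.494). Kit was higher in KO TN than in KO TP libraries by 1.21 ± 0.36 on the log2 scale without passing (limma, adjusted p = 0.279).

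Il7r was the single member called between KO SP and KO TP cells, where 0.200% of all genes passed. The TP libraries gave 6.82, 13.3 and 4.26 TPM and the SP libraries, none of which overlapped with them, 0.96, 0.04 and 0.07 TPM, a log2 change of -2.69 ± 0.51 (limma, adjusted p = 0.0373). The call was lost with the mouse number as a block (limma, adjusted p = 0.159), with a pseudocount of 0.1, with only the groups compared, and without KO TP replicate 1 or 2 or any 1 of the 3 KO SP libraries (up to 0.319). The KO TP libraries held T cell markers at 12.5 to 17.6 TPM against 8.15 to 14.8 TPM in KO SP libraries, which overlapped. Other markers separated these groups further, with 404 to 683 against 197 to 227 TPM for B and plasma cells, 61 to 218 against 0 to 5.85 TPM for neutrophils and 23 to 55.9 against 0.32 to 4.89 TPM for monocytes or macrophages. ILC markers overlapped (71.8 to 79.5 against 63 to 75.3 TPM), while Itga1 among them averaged 6.87 ± 0.955 TPM in TP and 3.45 ± 0.681 TPM in SP libraries (SD, n = 3). The part of other cells in the Il7r level was not tested. Between KO TN and KO SP cells none of the 8 members passed, where 0.0416% of all genes did. An unadjusted p under 0.05 (limma) was held by 5 of the 8 and by 333 of all 12018 genes tested. Ly6c2 came nearest, with a log2 change of -0.84 ± 0.15 (limma, adjusted p = 0.0601), and it passed with the mouse number as a block (0.00319) and without KO SP replicate 2 (range 0.00319 to 0.703). The KO TN libraries gave 5.69, 10.1 and 3.93 TPM of Kit, above each of the KO SP libraries with 0.51, 1.24 and 3.57 TPM. Its log2 change of 1.52 ± 0.36 passed only without KO SP replicate 3 (limma, adjusted p = 0.397 with all libraries; range 0.0384 to 1.00).

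Loss of B2m went with a large fall of Kit in all 3 subsets. With each number read as 1 mouse, the 3 subsets of a genotype came from the same mice. Comparisons between genotypes in the 3 subsets, for Kit and the other genes, are therefore not independent of each other. Among TP cells, Kit gave 48.7, 43.1 and 52.5 TPM in WT libraries but 2.58, 1.65 and 2.12 TPM in KO libraries, a mean 22.7-fold lower. The log2 change was -3.98 ± 0.36 (limma, adjusted p = 3.81e-06), with no overlap. In SP cells Kit was at 32.8, 32.8 and 51.1 TPM in WT and 0.51, 1.24 and 3.57 TPM in KO libraries, 21.9-fold lower in mean and -3.97 ± 0.36 on the log2 scale (limma, adjusted p = 4.41e-06). These differences were called under all 13 alternatives. In TN cells Kit was at 36.1, 26.1 and 26.1 TPM in WT and 5.69, 10.1 and 3.93 TPM in KO libraries, again without overlap. The mean was 4.48-fold lower and the log2 change -2.07 ± 0.36 (limma, adjusted p = 0.00850), and the call was lost with only the groups compared, without WT TN replicate 1 and without KO TN replicate 3 (up to 0.228). Mast cell or progenitor markers summed to 0 to 9.22 TPM in WT and 0.63 to 5.87 TPM in KO libraries, which overlapped in every subset, and the part of such cells in the Kit level was not tested. The difference between TN and TP in this effect, an interaction of 1.91 ± 0.51 on the log2 scale, was not called (limma, adjusted p = 0.451).

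Of the other members, 1 was called between genotypes. Thy1 was at 102, 107 and 62.2 TPM in KO TP libraries, below every WT TP library, with a log2 change of -1.31 ± 0.30 (limma, adjusted p = 0.0345). That made 2 of 8 members called in TP cells, where 1.59% of all genes passed, against 1 of 8 in SP cells (1.35%) and 1 of 8 in TN cells (0.716%). The Thy1 call was lost without any 1 WT TP library, without KO TP replicate 1 or 3, without the filter on low values, with only the groups compared and without a variance trend (limma, adjusted p up to 0.188). Thy1 is also a T cell antigen, and the T cell markers were higher in KO TP than in WT TP libraries (12.5 to 17.6 against 3.35 to 4.96 TPM). Their part in the Thy1 level was not tested. In SP cells Thy1 was lower in KO mice, with a log2 change of -1.12 ± 0.30, and passed only without WT SP replicate 1 (limma, adjusted p = 0.0851 with all libraries; range 0.0115 to 0.328). In TN cells its levels were alike, 46.5 to 58.7 TPM in KO and 35.0 to 58.6 TPM in WT libraries (log2 change 0.13, 95% interval -0.50 to 0.77). Ly6c2 was lower in KO mice in all 3 subsets without overlap, with log2 changes of -0.50 ± 0.15 (TP), -0.57 ± 0.15 (SP) and -0.58 ± 0.15 (TN), and none of the 3 passed (limma, adjusted p = 0.130, 0.0791 and 0.0988). Without KO SP replicate 3 the SP difference passed (0.0381; range 0.0381 to 0.359). Cd27 was higher in KO TP cells by 0.52 ± 0.13 and in KO SP cells by 0.42 ± 0.13 on the log2 scale, neither of which passed (limma, adjusted p = 0.0683 and 0.166). Without WT TP replicate 3 the first of these passed (0.0186; range 0.0186 to 0.300). KO TP libraries held B and plasma cell markers at 404 to 683 TPM against 167 to 181 TPM in WT TP libraries, beside the T cell and neutrophil markers given above. The part of other cells in the Cd27 and Ly6c2 differences between genotypes was not tested. Cd69, at 5.32 to 26.8 TPM, and Ly6c1 overlapped between genotypes in every subset. Spn differed by 0.06 to 0.11 on the log2 scale, higher in KO cells of each subset without passing.

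The test of whether the step from TP to TN differs between genotypes called none of the 8 members, where 0.0250% of all genes passed. Of all 12018 genes tested 754 had an unadjusted p under 0.05, and of the members 2 had (limma). These were Kit, given above, and Thy1, whose difference between TN and TP was smaller in KO mice by 1.44 ± 0.42 on the log2 scale (limma, adjusted p = 0.484). For the step from TP to SP none of the 8 passed, where 0.0166% of all genes did, and none had an unadjusted p under 0.05 (limma). For Ly6c2 the interval of the TP to TN interaction ran from -0.53 to 0.36 on the log2 scale.

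**Figure D2:**
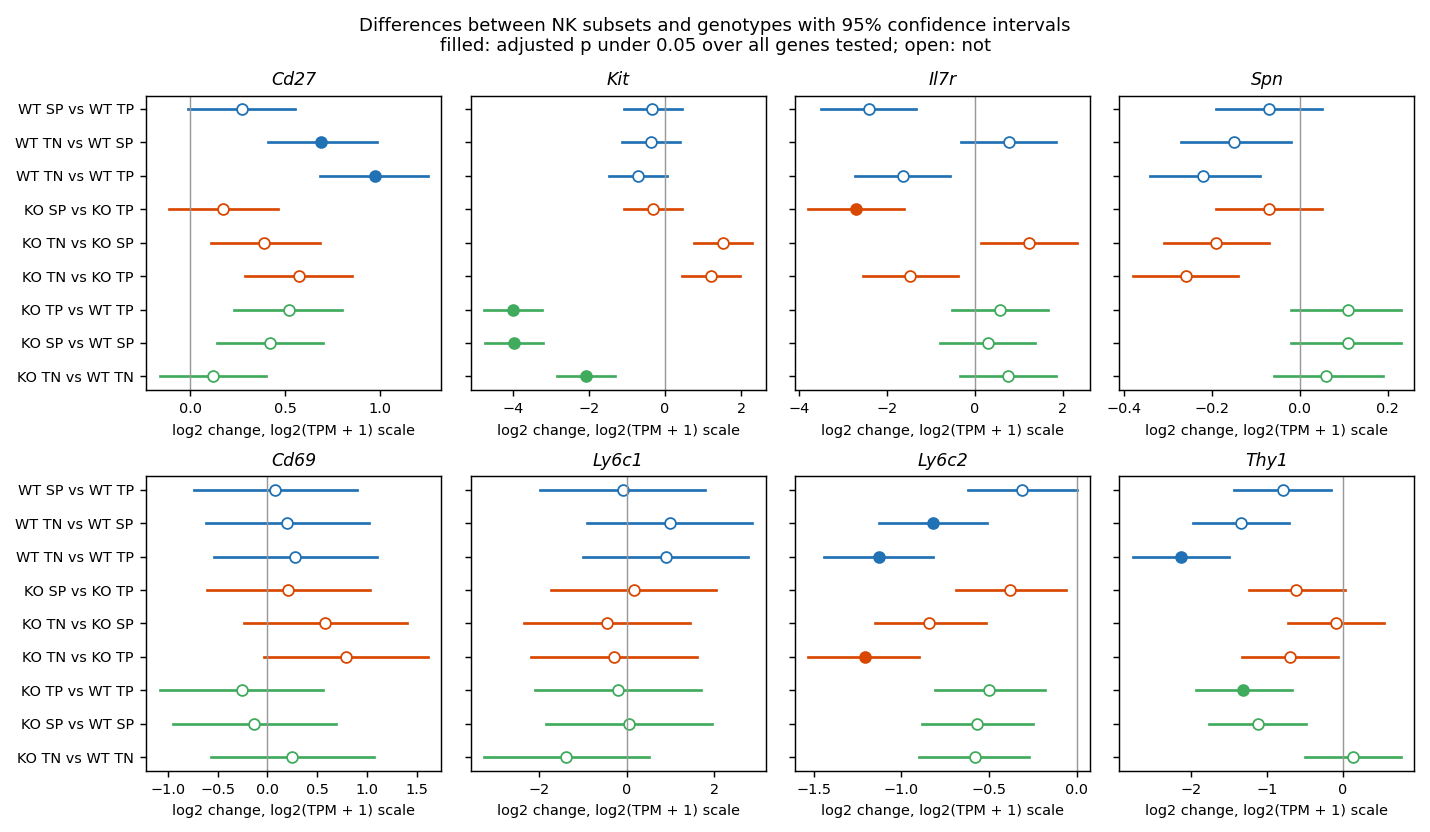
Log2 change on the log2(TPM + 1) scale (horizontal axes, each with its own range) with its 95% confidence interval for the 8 tested genes in 9 comparisons of sorted NK cells. Filled points are called, and the Kit intervals of the 3 genotype comparisons lie entirely below 0, as do those of Ly6c2 for TN against TP cells in both genotypes.

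The order of groups differed from gene to gene. Cd27 was highest in KO TN (206 TPM) and WT TN cells (190 TPM), which overlapped, then KO SP and KO TP cells (156 and 139 TPM), which overlapped too, and lowest in WT SP and WT TP cells (116 and 97.3 TPM). Kit ran from WT TP through WT SP to WT TN, neighbours that overlapped, and after a gap to KO TN and then KO TP and KO SP cells. Over the 18 libraries Cd27 and Ly6c2 ran against each other (Pearson r of log2(TPM + 1) = -0.92) and Ly6c2 and Thy1 ran together (r = 0.72). These are descriptions across libraries that share groups and processing. The genes most like Ly6c2 in pattern were Klrg1, an inhibitory receptor of mature NK cells (r = 0.94), Cx3cr1, the fractalkine receptor (0.90), and Lgals1 (0.90). Those most like Cd27 were Klra7 (0.89), Fyn (0.89) and Slamf6 (0.88), and those most like Spn were Itgam, which codes for CD11b (0.88), Tspan5 (0.87) and Itm2b (0.86). Kit went with Tmem254a (0.94), B2m itself (0.94) and Ugt1a7c (0.93), and Il7r with Adgrg5 (0.83), Klra3 (0.81) and Klrc1 (0.78), of which the last pair are genes of the sort. Thy1 went with Itgb3 (0.89), Cd38 (0.86) and Ccl5 (0.86). Cd69 was nearest to 3 ribosomal protein genes, Rps18 (0.78), Rpl23a (0.77) and Rpl35a (0.77), and Ly6c1, mostly at or near 0, to Blmh (0.77), Nubpl (0.77) and Oxr1 (0.74).

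Lists of other NK maturation genes were compared between the same sorted groups. Of 18 late-stage genes tested between WT TN and WT TP cells 9 fell and none rose, with a median log2 change of -0.33 against -0.01 over all genes. Klrg1 changed by -2.63 and Cx3cr1 by -2.23 on the log2 scale (limma, adjusted p = 3.41e-09 and 3.94e-06). Of 12 early-stage genes tested 3 rose and none fell, among them Ctla2a by 0.96 and Tcf7, the gene for TCF-1, by 0.45 on the log2 scale (limma, adjusted p = 6.06e-05 and 0.0376). In KO mice 2 of 18 late-stage genes fell and 3 of 12 early-stage genes rose between TN and TP cells, with Klrg1 at -1.65 and Tcf7 at 0.99. WT SP cells had 1 late-stage gene lower than TP cells, Klrg1 (-0.84), and 1 early-stage gene lower, Ltb (-2.38). From WT SP to WT TN cells 3 early-stage genes rose and 3 late-stage genes fell, among them Cd28 (0.91), Ltb (1.92), Klrg1 (-1.79) and Cx3cr1 (-1.53). In KO mice 1 gene of each list was called from TP to SP (Ctla2a at 0.70 and Klrg1 at -0.78) and 1 of each from SP to TN (Tcf7 at 0.71 and Klrg1 at -0.88). Between genotypes the lists went both ways. In TP cells the early-stage gene Tcf7 was lower in KO mice (-0.63), and of the late-stage genes 3 were lower and 1 higher, with Klrg1 at -1.61 and Serpinb9, an inhibitor of granzyme B, at 0.87. In SP cells 2 early-stage genes were higher in KO mice, Cd28 (0.78) and Ctla2a (0.53), and 3 lower, among them Xcl1 (-1.18), while of the late-stage genes 2 were lower and 1 higher (Klrg1 at -1.55, Serpinb9 at 0.80). In TN cells no early-stage gene was called, and 3 of 12 had an unadjusted p under 0.05, as had 1263 of all 12018 genes tested (limma). Of the late-stage genes in TN cells 2 were higher and 1 lower (Serpinb9 at 0.63, Gzmb, the gene for granzyme B, at 0.38 and Klrg1 at -0.63). Among 23 tested partners and pathway genes of the members, 3 rose and 1 fell from WT TP to WT TN cells. S1pr1, the receptor that CD69 removes from the surface, rose by 1.05, Bcl2, a survival gene downstream of the interleukin-7 receptor, rose by 0.75, and Msn, the moesin that binds CD43, fell by 0.26 on the log2 scale (limma, adjusted p = 0.000152, 0.00284 and 0.0480). Between genotypes S1pr1 was higher in KO cells in all 3 subsets, with log2 changes of 1.61 (TP), 1.77 (SP) and 0.68 (TN) (limma, adjusted p = 1.23e-06, 3.12e-07 and 0.0171), and Bcl2 by 0.90 in TP and 0.67 in SP cells (0.000362 and 0.00700). None of 4 tested Ly6 family genes outside the members was called in any of these comparisons. Over the 9 pairwise comparisons of sorted cells, immediate-early genes were called in 1, KO SP against WT SP, where 2 of 11 fell, with log2 changes of -2.33 for Egr1 and -1.54 for Nr4a1.

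After 22 h of ionomycin, splenic NK cells held more Cd27 and less Ly6c2 than after vehicle. Of the 9 members, all tested in this table, 2 were called, where 2.91% of all genes were. Cd27 was at 38.0, 106 and 123 TPM in vehicle and at 367, 293 and 365 TPM in ionomycin libraries. All ionomycin values lay above all vehicle values, with a log2 change of 2.09 ± 0.41 (limma, adjusted p = 0.0337). Ly6c2 was at 26.4, 159 and 168 TPM in vehicle and was listed at 0.81, 0 and 10.4 TPM in ionomycin libraries, a log2 change of -5.04 ± 0.99 (limma, adjusted p = 0.0346). The groups did not overlap. Both calls were lost without any 1 of the ionomycin libraries, without vehicle replicate 2, without the filter on low values and without a variance trend, and that of Ly6c2 also without vehicle replicate 3 and with a pseudocount of 0.1 (limma, adjusted p up to 0.175 for Cd27 and 0.171 for Ly6c2). Leaving out replicate 1 of both groups, chosen after seeing the data, ended both calls as well (limma, adjusted p = 0.0582 for Cd27 and 0.103 for Ly6c2). T cell markers summed to 13.2 to 25.3 TPM in ionomycin and 2.24 to 7.87 TPM in vehicle libraries, with Cd4, Cd8a and Cd8b1 listed at 0 in all 6, and their part in the Cd27 level was not tested.

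Kit and Cd69 were lower after ionomycin in all 3 libraries without passing. Kit was at 220, 219 and 275 TPM in vehicle and 123, 56.2 and 112 TPM in ionomycin libraries (log2 change -1.35 ± 0.31, limma, adjusted p = 0.0610). Cd69 was at 142, 71.6 and 54.7 TPM in vehicle and 15.9, 33.6 and 25.4 TPM in ionomycin libraries (log2 change -1.74 ± 0.42, limma, adjusted p = 0.0709), and passed without vehicle replicate 3 (0.0353; range 0.0353 to 0.250). Neither pair of groups overlapped, which is a description, as the share of all genes without overlap was not counted. Thy1 and Ly6a spread more within groups than between them. Thy1 was at 1974, 366 and 32.0 TPM in vehicle and 1496, 323 and 171 TPM in ionomycin libraries, numbered alike in both arms. Ly6a was at 855, 123 and 25.5 TPM in vehicle and 55.3, 14.5 and 14.0 TPM in ionomycin libraries. For both genes, replicate 1 was highest in each arm and replicate 3 lowest. Leaving out vehicle replicate 3 brought Ly6a past the threshold (limma, adjusted p = 0.316 with all libraries and 0.0459 without it; range 0.0459 to 0.634). Vehicle replicate 3 also had the highest neutrophil marker sum, 349 TPM, against 0 to 119 TPM in the ionomycin libraries, and the highest Il7r, 59.1 TPM against 9.19 to 13.2 TPM in the other 5, and the part of other cells in these values was not tested. Spn was at 270, 369 and 441 TPM in vehicle and 245, 282 and 249 TPM in ionomycin libraries, which overlapped.

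**Figure D3:**
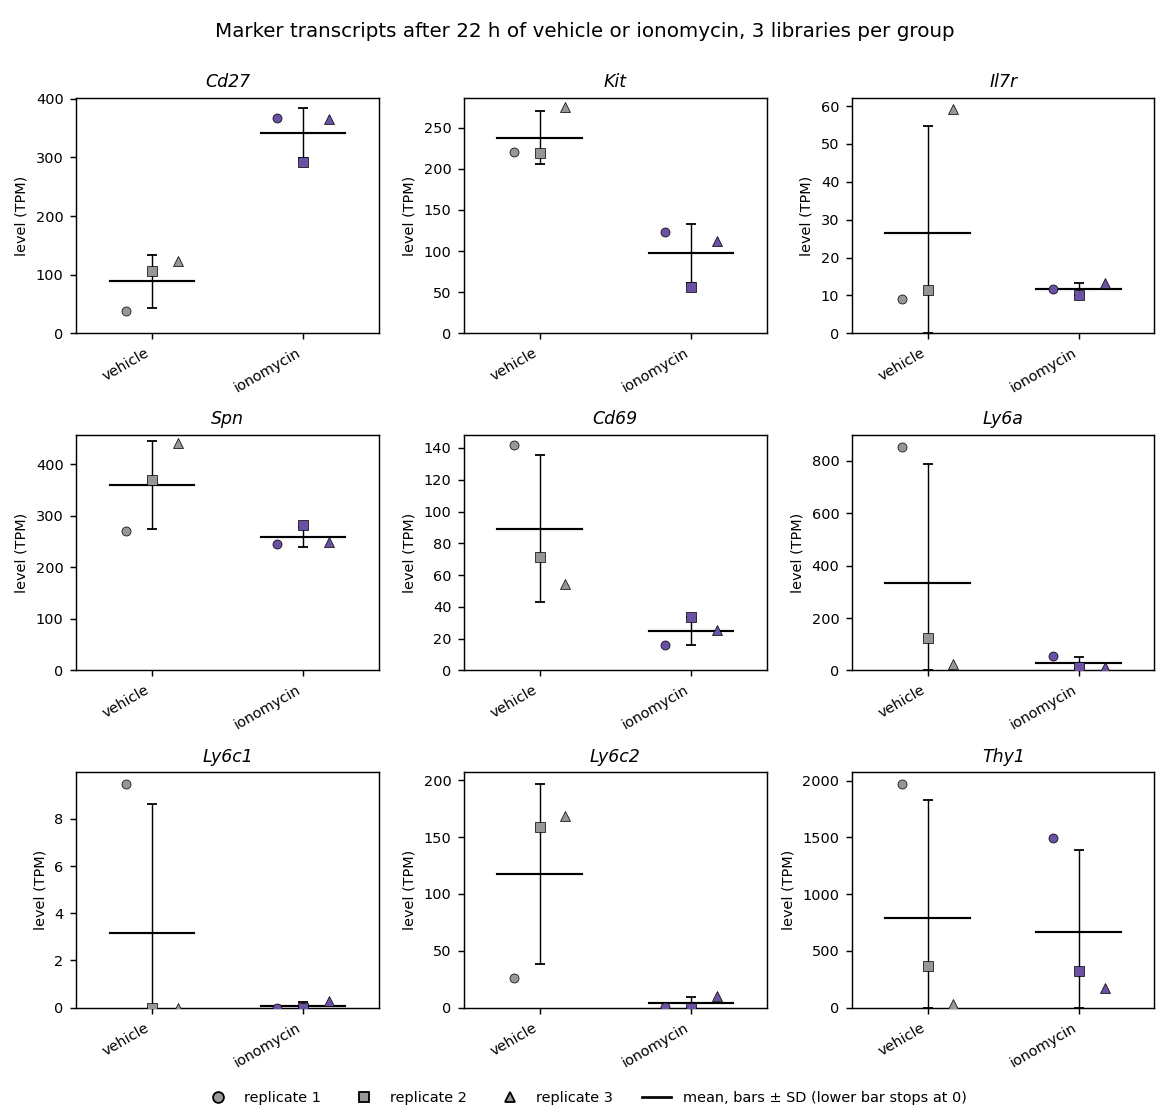
Levels in TPM (vertical axes, starting at 0) of the 9 genes after vehicle or ionomycin, with 1 point per library shaped by replicate number, a bar at the mean and whiskers of 1 SD. Cd27 is higher and Ly6c2, Kit and Cd69 are lower in all 3 ionomycin libraries, while Thy1 runs from 32.0 to 1974 TPM within the vehicle group alone.

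The other genes of these lists moved in both directions after ionomycin. Of 18 late-stage genes tested 3 fell and 1 rose, with log2 changes of -4.23 for Klrg1, -2.21 for Gzma, the gene for granzyme A, and 1.37 for Ikzf3 (limma, adjusted p = 0.0197, 0.00767 and 0.0420), and the median was -0.83. Of 18 early-stage genes 2 rose and 1 fell. Cd160 averaged 157 ± 50.7 TPM against 5.28 ± 4.57 in vehicle (SD, n = 3), Cd24a averaged 23.6 ± 5.84 TPM and was listed at 0 in all vehicle libraries, and Ctla2a fell by 3.15 on the log2 scale. Ly6e, a relative of the Ly6 members, was the 1 of 3 tested Ly6 family genes called, with a log2 change of -2.53 (limma, adjusted p = 0.0270). None of 23 partners and pathway genes was called, and 8 had an unadjusted p under 0.05, as had 2169 of all 14372 genes tested (limma). Ncr1, which marks NK cells, averaged 123 ± 25.6 TPM after ionomycin and 795 ± 280 TPM in vehicle (SD, n = 3), and summed NK markers were at 3844 to 4958 against 6722 to 11843 TPM. That sum includes Gzma, which averaged 1076 ± 244 TPM after ionomycin and 5109 ± 1648 TPM in vehicle. Of 7 NK markers tested 2 were called, both lower, where 2.91% of all genes were called. An unadjusted p under 0.05 (limma) was held by 4 that were lower and 1 that was higher. In bulk libraries such as these, fewer cells of a kind and less RNA per cell cannot be told apart.

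Both antibody combinations went with lower Il7r, Cd69 and Ly6c2. Groups were taken from the table columns that the sample descriptions name, since the titles place 6 of the 9 libraries in another group, and grouped by titles no member was called. Both comparisons share the medium libraries. Of 8 members tested 3 were called for NKp46 with NKG2D, where 0.431% of all genes were, and 3 for NKp46 with DNAM-1, where 0.782% were. Il7r was at 38.1, 28.0 and 24.5 TPM in medium, 6.38, 6.06 and 4.71 TPM with NKp46 and NKG2D antibodies and 8.79, 9.15 and 5.08 TPM with NKp46 and DNAM-1 antibodies. Every stimulated library was below every medium library, with log2 changes of -2.20 ± 0.29 and -1.86 ± 0.29 (limma, adjusted p = 0.00974 and 0.0231). Cd69 was at 398, 223 and 293 TPM in medium, 104, 86.9 and 116 TPM with NKG2D and 98.6, 114 and 151 TPM with DNAM-1. The medium libraries were again the higher, with log2 changes of -1.53 ± 0.22 and -1.31 ± 0.22 (limma, adjusted p = 0.0171 and 0.0337). Ly6c2 was at 274, 294 and 296 TPM in medium, 157, 122 and 135 TPM with NKG2D and 130, 136 and 130 TPM with DNAM-1. It fell by 1.06 ± 0.11 and 1.12 ± 0.11 on the log2 scale (limma, adjusted p = 0.00152 and 0.00133), without overlap.

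The Ly6c2 calls were lost only when the groups followed the titles or when replicate 3 of all groups was left out, an alternative chosen after seeing the data (limma, adjusted p = 0.0865 for NKG2D and 0.0606 for DNAM-1; over all alternatives up to 0.999 and 0.987). Under those settings the Il7r and Cd69 calls were lost too, and also with only the groups compared and, for Cd69, without a variance trend or without the filter on low values. For NKG2D, leaving out its replicate 3 ended the calls of Il7r and Cd69, and its replicate 1 or 2 that of Cd69. For DNAM-1, leaving out any 1 of its libraries or medium replicate 1 ended both, and the Il7r call also needed the filter on low values. Over the alternatives the Il7r adjusted p ran from 0.00728 to 0.997 (NKG2D) and 0.0104 to 0.828 (DNAM-1), and that of Cd69 from 0.0102 to 0.976 and 0.0150 to 0.963 (limma).

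Thy1 was higher in every stimulated library, at 381, 423 and 590 TPM with NKG2D and 422, 495 and 590 TPM with DNAM-1 against 313, 318 and 374 TPM in medium. Its log2 changes of 0.45 ± 0.17 and 0.57 ± 0.17 did not pass (limma, adjusted p = 0.259 and 0.137), and passed with the mouse number as a block (0.0489 and 0.0157; ranges 0.0489 to 0.968 and 0.0157 to 0.586). Ly6a was high in replicate 3 of every group, at 28.8 TPM in medium, 248 TPM with NKG2D and 226 TPM with DNAM-1, against 3.99 to 27.3 TPM in the other 6 libraries. Within each replicate number it was higher with antibodies, and with the block the DNAM-1 difference passed at a log2 change of 2.03 (limma, adjusted p = 0.0447, against 0.385 without it). Cd27 (123 to 187 TPM), Kit (130 to 216 TPM) and Spn (311 to 377 TPM) overlapped between medium and both stimulated groups. For Kit the 95% intervals of the log2 change ran from -0.48 to 0.28 with NKG2D and from -0.49 to 0.26 with DNAM-1. Ly6c1 was at or under 0.48 TPM and was not tested. Between the 2 antibody combinations none of the 8 members passed, where 0.0146% of all genes did, and none had an unadjusted p under 0.05 (limma).

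**Figure D4:**
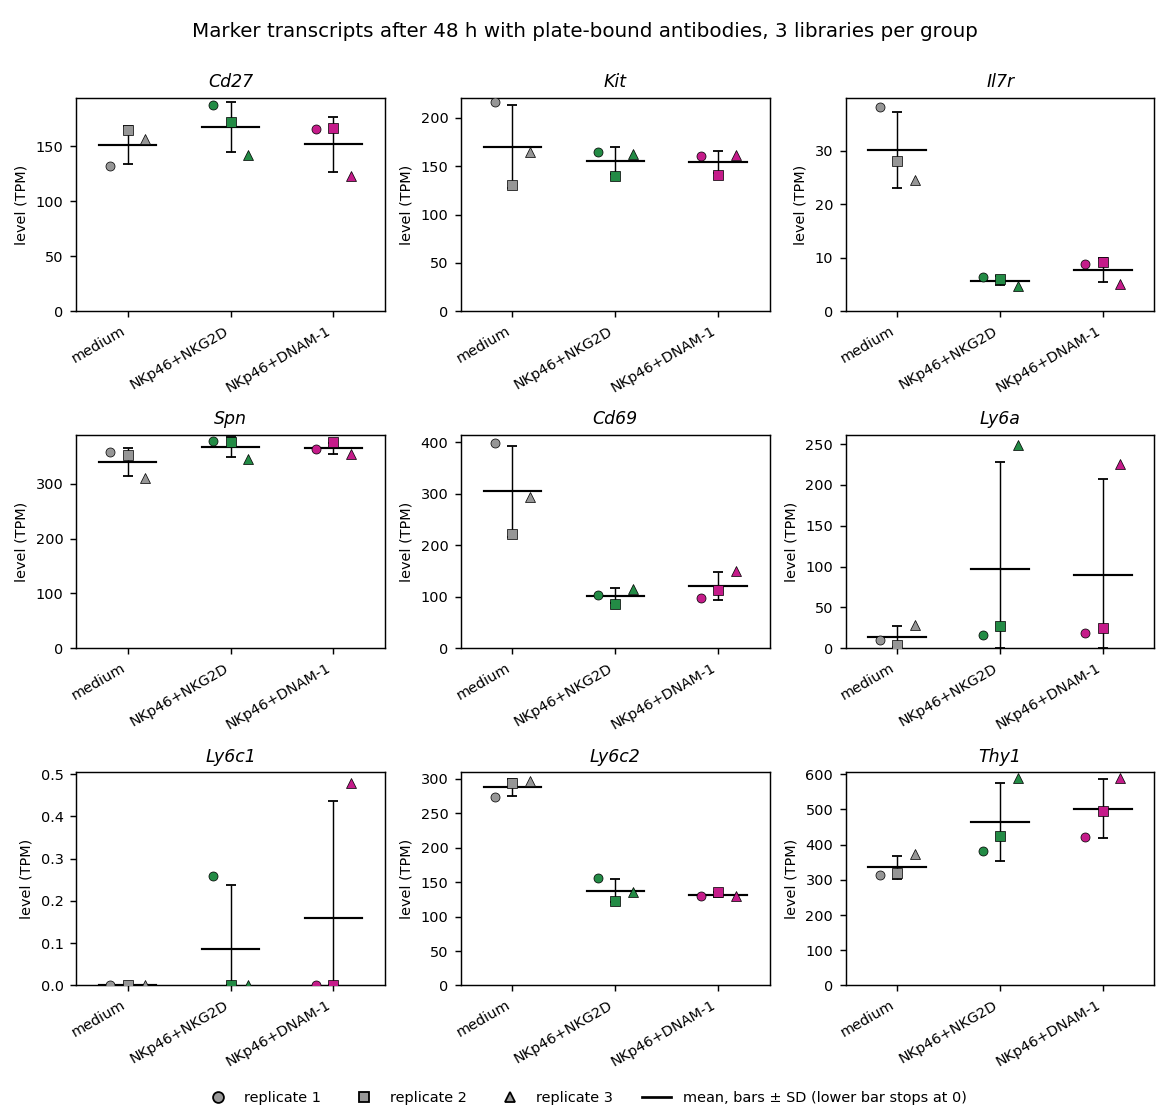
Levels in TPM (vertical axes, starting at 0) of the 9 genes in medium and with either antibody combination, with 1 point per library shaped by replicate number, a bar at the mean and whiskers of 1 SD. Il7r, Cd69 and Ly6c2 are lower in all 6 stimulated libraries than in the 3 medium libraries, and Ly6a is highest in replicate 3 of each group.

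Neither maturation list was called in the antibody table: of 16 early-stage and 18 late-stage genes tested none passed against medium with either combination. An unadjusted p under 0.05 (limma) was held by 4 and 10 of them with NKG2D and by 4 and 9 with DNAM-1. Of all 13689 genes tested, 2069 with NKG2D and 2458 with DNAM-1 held such a p. None of 23 partners and pathway genes passed either, with 9 and 7 under an unadjusted p of 0.05. Of 10 immediate-early genes tested 6 fell with each combination, and medium held the higher levels, with Egr1 at 1836 ± 423 TPM in medium against 291 ± 50.1 and 294 ± 48.6 TPM (SD, n = 3). T cell markers summed to 28.1 to 75 TPM in medium and 20.7 to 39.6 TPM in stimulated libraries, and B and plasma cell markers to 184 to 223 and 124 to 180 TPM. Their part in the Il7r and Cd69 levels was not tested. The summed NK markers overlapped, at 9843 to 10752 TPM in medium and 9896 to 11140 TPM in stimulated libraries.

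In NK cells from the tumours Cd69 had the highest mean of the 9 members, at 305, 247 and 655 TPM, and without replicate 3 its mean of 276 TPM lay below that of Thy1, 316 TPM. Immediate-early and handling stress genes summed to 6595 to 12001 TPM in these libraries. The part of cell handling in the Cd69 level was not tested. The 3 tumour libraries form 1 group, so nothing was tested, and levels were not compared with other tables. Their column names carry the terms B2MKO and SP, which the titles do not explain. The labels give the genotype of these cells as WT, and B2m was at 5196, 3929 and 4536 TPM. Thy1 was at 310, 322 and 284 TPM and overlapped with Cd69. Ly6c2 at 130, 154 and 220 TPM and Spn at 148, 156 and 172 TPM overlapped each other and lay below Thy1. Cd27 was at 122, 59.3 and 67.4 TPM, below every Spn value. Kit was at 25.2, 13.3 and 19.0 TPM and Il7r at 0.11, 4.46 and 5.27 TPM, so the receptor for stem cell factor was above that for interleukin-7 in each library. Ly6a was at 4.01, 46.6 and 26.0 TPM and Ly6c1 at 0, 27.8 and 9.81 TPM, both lowest in replicate 1. That library also held the lowest summed tumour or stroma markers, 33.1 TPM against 759 and 935 TPM. Its summed mast cell or progenitor markers were lowest too, 9.98 TPM against 85.2 and 119 TPM. That sum came from Hdc and Cd34 alone, since the other 5 of the 7 markers (Cpa3, Fcer1a, Flt3, Mcpt4 and Ms4a2) were listed at 0 in every tumour library. Il7r was lowest in replicate 1 as well. The part of other cells in Ly6a, Ly6c1 and Il7r was not tested. For Ly6c1 and Ly6a the shared sequence stretches bear on the split between them. NK markers summed to 8718 to 9454 TPM, and all 6 neutrophil markers were listed at 0.

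**Figure D5:**
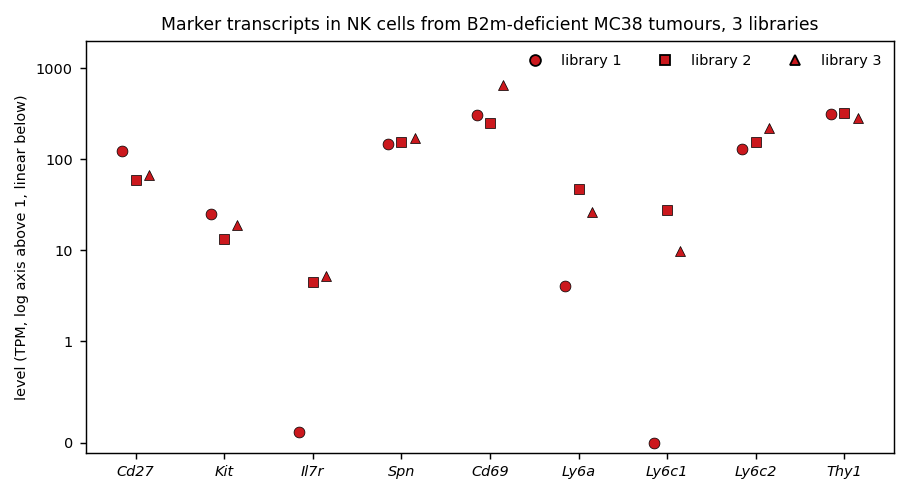
Levels in TPM (vertical axis, log above 1 and linear below) of the 9 genes in the 3 tumour NK libraries, 1 point per library. Cd69 spans 247 to 655 TPM at the top, and Ly6a, Ly6c1 and Il7r are each lowest in library 1.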

How the data were processed

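RNA-seq was analysed in 36 mouse NK cell libraries from 4 tables of TPM values that the authors deposited. Per the submitters' processing notes STAR, RSEM and GRCm39 were used; versions, annotation and filters are not given in the sources used here. Per the labels' protocols, libraries came from 50 ng of total RNA (RIN above 7) with an mRNA kit. The TPM columns sum to 1000000, except 934292 to 948786 in the table of sorted subsets. Read depth is unknown, so no counting interval is given.

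Genes averaging 1 TPM or more across a table were fitted on log2(TPM + 1) with limma 3.58.1 in R 4.3.3 (empirical Bayes with a variance trend), all groups of a table together and no replicate block. Fold changes of low genes are understated on this scale. P-values are two-sided and adjusted over all genes, and the script was tested on simulated data. All 9 members are named in every table. A member's change is a result of its own where its unadjusted p was under 0.05, and of each list at most 2 called genes in each direction are named. Likeness is the Pearson r over 18 libraries, leaving out unnamed transcripts. Members, lists and tests were chosen with earlier results of these data known.

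Column names of the sorted and antibody tables join the replicate number to the genotype (WT1, KO1), which was read as 1 mouse per number. Same-numbered libraries deviated together by a mean r of 0.001 in WT and 0.02 in KO sorted cells and 0.064 in the antibody table, against 0, -0.01 and -0.032 for other numbers. Sequences and shared windows were read from RefSeq promoters (GRCm38.p6) and GENCODE vM21 transcripts with Python 3.11.15 and Biopython 1.88. No coordinate of another build was used.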

Additional observations from a re-analysis of the deposited data

How the results depend on the processing

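Each result was recomputed under other settings, 1 at a time. Of 212 counts of called members 152 stayed within 1.5 times the first, and of 665 changes of single members 560 kept their direction and side of the threshold, 85 lost the call, 19 gained it and 1 turned: Cd69 with NKp46 and DNAM-1 antibodies, 0.11 on the log2 scale when groups followed the titles. The causes were not tested. In the tumour table the 27 means that leave out 1 library were set against the SD over the 3 libraries. With 3 values such a mean always moves by less than the SD, so this says nothing about how stable the levels are. Without replicate 2 the means of Ly6c1 and Ly6a went from 12.6 to 4.91 and from 25.6 to 15.0 TPM.

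With only the groups compared, the members called were 1 for WT TN against TP (3 otherwise), 1 for WT SP against TP (0), 0 for WT TN against SP (2), 0 for KO TN against TP (1), 0 for KO SP against TP (1), 1 between genotypes in TP cells (2), 0 in TN cells (1), and 1 for each antibody combination (3). A pseudocount of 0.1 gave 1 for WT SP against TP, 0 for KO SP against TP and 1 for ionomycin (2). Without the filter on low values there were 0 for WT TN against SP, 1 between genotypes in TP cells, 0 for ionomycin and 1 for DNAM-1. Without a variance trend there were 1 for WT SP against TP, 0 for WT TN against SP, 1 between genotypes in TP cells and 0 for ionomycin. Quantile normalization gave 2 for KO TN against TP. Grouping by titles gave 0 for both antibody combinations.

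With the replicate block, 2 members were called for KO TN against TP, 0 for KO SP against TP, 1 for KO TN against SP and 5 for DNAM-1. In the ionomycin table the samples share only a number (mean r of 0.062 for same numbers, -0.031 for others, and 5 of 6 libraries nearest their own number), and the block added Kit (limma, adjusted p = 0.0418). The block changed no other call beside those given with the results.

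Leaving out 1 library gave 0 to 2 members called for WT TN against SP, 1 to 2 for KO TN against TP, 0 to 1 for KO SP against TP, 0 to 1 for KO TN against SP, 1 to 2 between genotypes in TP cells, 1 to 2 in SP cells, 0 to 1 in TN cells, 0 to 3 for ionomycin, 0 to 3 for NKG2D and 0 to 3 for DNAM-1, the last 3 with the added settings that leave out 1 replicate of all groups (replicate 1 for ionomycin, replicate 3 for antibodies), chosen after seeing the data. The scalings moved the median of all genes by less than 0.1 on the log2 scale. With 3 libraries a group and no read counts, differences of low genes such as Ly6a, Ly6c1 and Il7r were the least certain.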
